A study of Homo sapiens with 12 samples.

Results

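The 10 genes described here are matrix metalloproteases (MMPs), their tissue inhibitors (TIMPs) and basigin, an MMP inducer: MMP1, MMP2, MMP3, MMP7, MMP14, MMP15, TIMP1, TIMP2, TIMP3 and BSG. They were chosen by symbol, and all 10 were found among the 27788 symbols of the count files and the 24552 symbols of the FPKM files (levels scaled by transcript length and library depth). The choice was made with the loss of MMP14 in the HCT116 knockout already known. The members' values in that contrast are therefore given as a description, without p-values.

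RNA was sequenced from HCT116, a colorectal carcinoma line, and U-87 MG, a glioblastoma line, each in 3 wild-type (WT) and 3 knockout (KO) libraries. GSTO1, the gene removed, encodes glutathione S-transferase omega-1, a thiol-transferase with an active-site cysteine. Knockout lines expressed Cas9 from a lentivirus under the hEF1α promoter with blasticidin selection, received tracrRNA with a crRNA against GSTO1 exon 2, and were picked as individual colonies. A non-targeting crRNA control is described, but whether the WT libraries carried Cas9 or that control, and how many colonies each KO group holds, could not be learned from the sources used here. An effect of the knockout and a difference of the picked colony from its parent line cannot be told apart in this design. No label says that replicates were separate cultures, so the p-values reflect library-to-library spread alone, part of which may be technical.

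MMPs are zinc-dependent endopeptidases that cut collagens, other matrix proteins and cell-surface proteins. Most are secreted as inactive proenzymes. The membrane-type members MMP14 and MMP15 sit in the plasma membrane, and MMP14 activates pro-MMP2 in a complex in which TIMP2 acts as the bridge. TIMPs bind active MMPs in a tight complex and block the catalytic zinc, and the balance of the opposing families sets pericellular proteolysis in invasion by carcinoma and glioma cells. BSG (basigin, CD147, EMMPRIN) is a membrane glycoprotein that induces MMPs and escorts the lactate transporters MCT1 and MCT4 to the cell surface.

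The libraries held 17814142 to 28097179 counts assigned to genes. GSTO1 was measured at 63.9, 64.7 and 61.4 CPM (counts scaled to the size of the library) in HCT116 WT and at 17.1, 14.6 and 15.7 in HCT116 KO. It was measured at 143, 142 and 117 CPM in U-87 MG WT and at 25.02, 23.8 and 25.2 in U-87 MG KO, so KO libraries kept some transcript and lay below all WT libraries in both lines. WT replicate 3 of U-87 MG stood apart from its group, with chi-square values per degree of freedom of 8.62 and 9.77 against the other WT libraries, which gave 2.42 against each other. Replicate 3 of HCT116 KO (5.82 and 5.65, beside 1.82) and of HCT116 WT (3.77 and 3.58, beside 1.49) differed more from their groups than the other libraries did. U-87 MG WT replicate 3 also held the lowest GSTO1 level of its group. In HCT116, 9 of 12 colon epithelium markers exceeded a mean of 0.5 FPKM, among them EPCAM, CDH1 and CDX2, while VIL1, CDX1 and GPA33 did not. In U-87 MG, NES and VIM alone of 8 glial markers exceeded 0.5 FPKM, with GFAP, S100B, SOX2, OLIG2, AQP4 and FABP7 below it, whereas 5 (WT) or 6 (KO) of 8 fibroblast and mesenchyme markers exceeded it, among them COL1A1 and COL1A2.

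The lines differed in which of the 10 genes they expressed. Levels of different genes are compared per length, in FPKM, and each value is the mean ± SD of 3 libraries. The lines were sequenced differently (paired reads in U-87 MG, single reads in HCT116), so levels in the lines stand side by side without a test. HCT116 WT expressed BSG most, at 265 ± 6.98 FPKM, followed by TIMP1 at 111 ± 2.2, TIMP2 at 31.4 ± 1.02, MMP15 at 12.9 ± 0.314 and MMP14 at 3.57 ± 0.126, and no library of one of these genes overlapped a library of the next. MMP7, TIMP3 and MMP1 averaged 0.0788, 0.0720 and 0.0456 FPKM and overlapped each other, and MMP2 and MMP3 were listed at 0 in every WT library. HCT116 thus carried the inhibitors TIMP1 and TIMP2 and little message for secreted MMPs among the members. U-87 MG WT expressed MMP2, the secreted gelatinase, above all others, at 960.4 ± 16.4 FPKM. BSG followed at 372 ± 5.71, TIMP1 at 334 ± 17.4, MMP14 at 107 ± 4.0, TIMP2 at 63.9 ± 1.68, TIMP3 at 30.7 ± 0.717 and MMP3 at 5.54 ± 0.353. MMP7 at 1.39 ± 0.343 and MMP15 at 1.21 ± 0.218 overlapped, and MMP1 was lowest at 0.425 ± 0.104. MMP14 outranked MMP15 in U-87 MG and ranked below it in HCT116. In the KO libraries the order changed at the low end. MMP14 at 0.374 ± 0.0775 FPKM then overlapped MMP7 at 0.302 in HCT116, and MMP3 at 0.852 ± 0.222 overlapped MMP7 at 1.20 in U-87 MG.

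**Figure D1:**
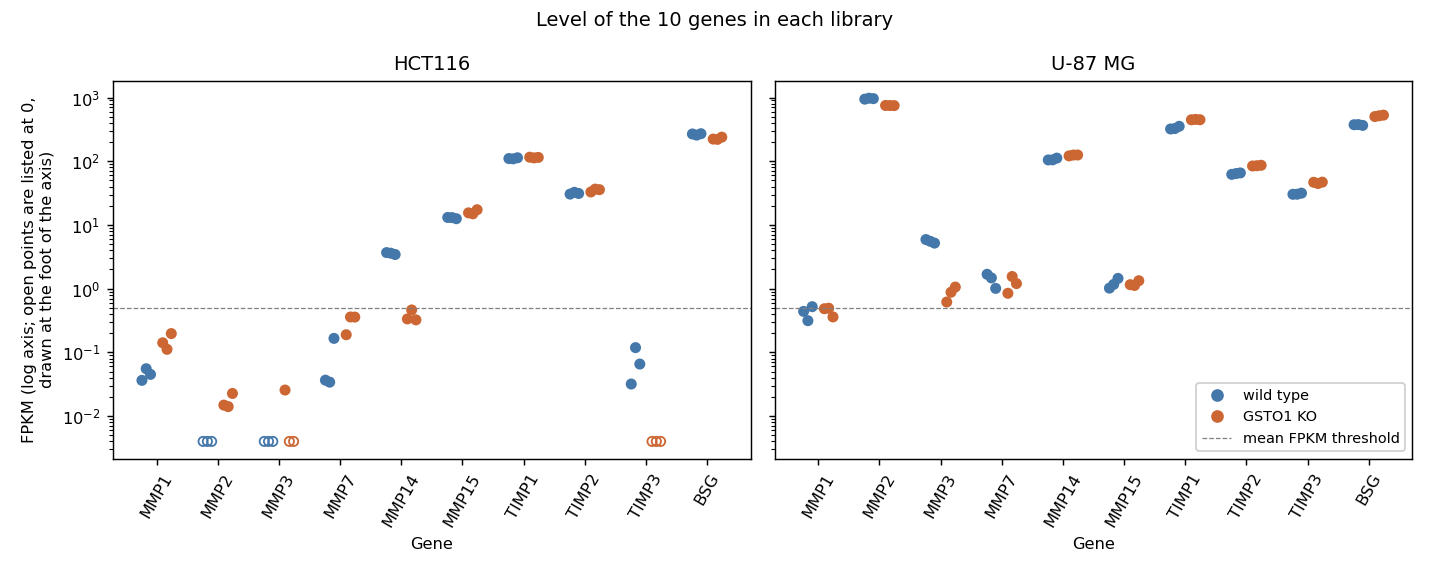
FPKM of each of the 10 genes in each library on a log axis, HCT116 on the left and U-87 MG on the right, WT in blue and KO in orange, with open points for values listed at 0. MMP14 in HCT116 and MMP3 in U-87 MG have KO points far below their WT points, TIMP3 in HCT116 is listed at 0 in every KO library, and MMP2 leads all members in U-87 MG and is listed at 0 in HCT116 WT.

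The question for each gene was whether loss of GSTO1 moved its expression within a line. Each line was tested with edgeR's quasi-likelihood test, and a gene was called where its adjusted p was under 0.05, its change exceeded 1.5-fold and its mean FPKM exceeded 0.5. In HCT116, 5 of the 10 members passed the filter on low counts, and MMP14, whose fall was known when the genes were chosen, was the 1 that met these thresholds. Of the 14068 genes tested there 11.9% were called (4.07% as lower in KO), and nothing is read from the members' count beside it. All 10 members were tested in U-87 MG, and 1 of them, MMP3, was called, where 16.2% of 13741 genes tested were called (8.15% as lower in KO). By adjusted p alone 7 of 10 members passed in U-87 MG, against 59.3% of all genes. KO and WT libraries did not overlap in CPM for 5 of 5 members in HCT116, against 61.6% of all genes, and for 7 of 10 in U-87 MG, against 64%. The members' share in U-87 MG was therefore near that of all genes by each of these counts. The median log2 fold change of the members tested was 0.10 in HCT116 and 0.15 in U-87 MG, beside 0.01 over all genes tested in either line. The HCT116 calls over all genes split into 1100 higher and 572 lower, and on the FPKM scale into 567 and 502 (pseudocount 1) or 960 and 754 (pseudocount 0.1).

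**Figure D2:**
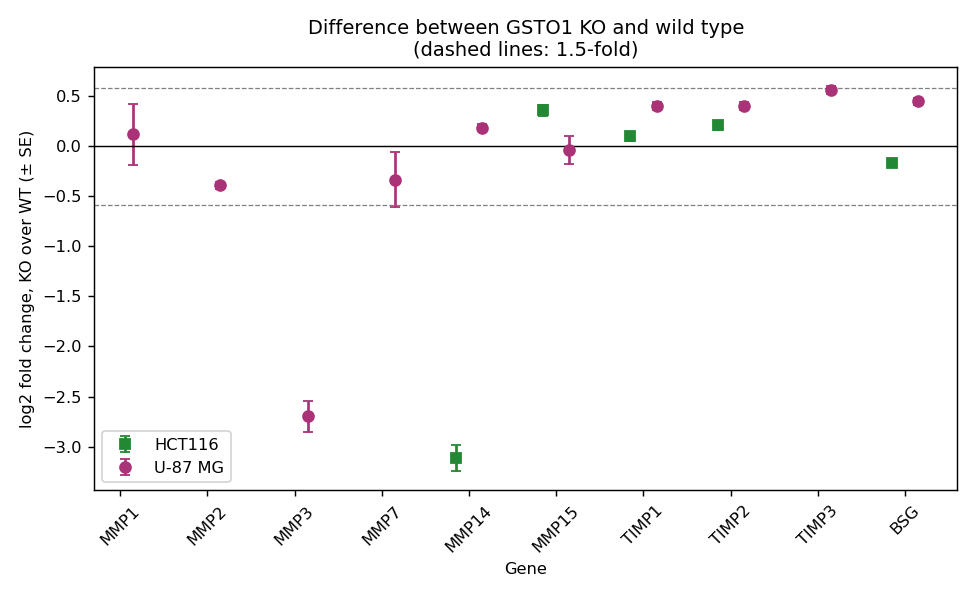
Log2 fold change, KO over WT, of each member in each line, with bars of 1 standard error and dashed lines at the 1.5-fold threshold. MMP14 in HCT116 (-3.11) and MMP3 in U-87 MG (-2.70) lie beyond the lower line, and the other members tested lie between the lines.

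Among the secreted proteases, MMP3 (stromelysin-1), which cuts proteoglycans and activates other pro-MMPs, fell in U-87 MG. It had 278, 310 and 227 counts in the WT libraries and 36, 42 and 45 in the KO libraries, or 12.2, 11.2 and 10.7 CPM against 1.30, 2.02 and 2.05. Every KO library lay below every WT library, and the mean dropped 6.38-fold, from 11.4 ± 0.765 to 1.79 ± 0.423 CPM. The log2 fold change was -2.70 (SE 0.15, adjusted p = 1.15e-12, edgeR), and without WT replicate 3 it was -2.74. On the log2(FPKM + 1) scale, which understates changes of low genes, it was -1.83. MMP3 lies at chr11:102835801-102843609 (GRCh38, minus strand, 10 exons) in the cluster of MMP genes that also holds MMP1 and MMP7. WTAPP1 runs antisense over 1.73% of the exon bases of MMP3, and the sources used here do not say whether the counting used strand. None of the 6 tested genes within 500 kb of MMP3 was called, and their log2 fold changes ran from -0.33 to 0.12. In HCT116, 1 MMP3 count was found in all KO libraries together and none in WT, so MMP3 was not measurable there.

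MMP2 (gelatinase A, chr16:55389700-55506691, plus strand, 13 exons) degrades type IV collagen and was the most abundant member in U-87 MG. It was measured at 3463, 3599.6 and 3648 CPM in WT and at 2738, 2725 and 2709.5 in KO, with no overlap. The change was smaller than that of MMP3, to 0.763 of the WT mean (log2 fold change -0.39, SE 0.03, adjusted p = 5.54e-10, edgeR), and did not reach the 1.5-fold threshold. In HCT116 it had 1, 1 and 2 counts in KO and 0 in each WT library. The WT counts of 0 allow a level of up to 0.0417 CPM over the group, a limit that covers counting error only. The KO counts, 4 in all, amount to 0.0661 CPM, an estimate given without its own counting error. No difference between the groups is read from these counts.

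MMP1 (interstitial collagenase, chr11:102789401-102798160, minus strand, 10 exons) cuts fibrillar collagen. It lay near the detection limit in both lines. It was measured at 0.969, 0.689 and 1.04 CPM in U-87 MG WT and at 1.05, 1.06 and 0.773 in KO, and the groups overlapped (log2 fold change 0.12, SE 0.31, adjusted p = 0.763, edgeR). HCT116 held 2, 3 and 2 counts in WT and 7, 5 and 12 in KO, too few for the test. WTAPP1 runs antisense over 8.14% of the exon bases of MMP1. The sources used here do not say whether the counting used strand, so reads of the overlapping genes cannot be told apart in that stretch.

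MMP7 (matrilysin, chr11:102520508-102530750, minus strand, 6 exons) is the small epithelial MMP, known in colorectal tumours as a target of Wnt signalling. It was nonetheless scarce in HCT116, with 1, 1 and 4 counts in WT and 4, 8 and 10 in KO. In U-87 MG it was measured at 1.98, 1.67 and 1.14 CPM in WT and at 0.939, 1.63 and 1.32 in KO, again with overlap (log2 fold change -0.33, SE 0.28, adjusted p = 0.316, edgeR). For MMP1 and MMP7 in U-87 MG, 17 to 46 counts per library set the precision. The standard errors were 0.31 and 0.28 on the log2 scale, and changes larger than these could still have gone undetected.

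MMP14 (MT1-MMP) had the largest difference of the members tested. The gene lies at chr14:22836560-22849041 (GRCh38, plus strand, 10 exons). It had 377, 399 and 316 counts in the HCT116 WT libraries and 28, 42 and 37 in the KO libraries, or 15.5, 15.4 and 14.9 CPM against 1.56, 2.21 and 1.55. The WT libraries lay close together and far above all KO libraries, and the mean was 8.61-fold lower in KO (15.3 ± 0.319 against 1.77 ± 0.379 CPM, log2 fold change -3.11, SE 0.13). Leaving out each library in turn gave -3.29 to -3.01, and on the log2(FPKM + 1) scale the difference was -1.74. MMP14 in U-87 MG was measured at 423, 427 and 449 CPM in WT and at 485, 496 and 497 in KO. There the KO libraries lay above the WT libraries, by 1.14-fold in the mean (log2 fold change 0.19, SE 0.04, adjusted p = 1.99e-04, edgeR), which is below the 1.5-fold threshold. The directions in the lines were opposite, and the difference between lines was not tested.

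**Figure D3:**
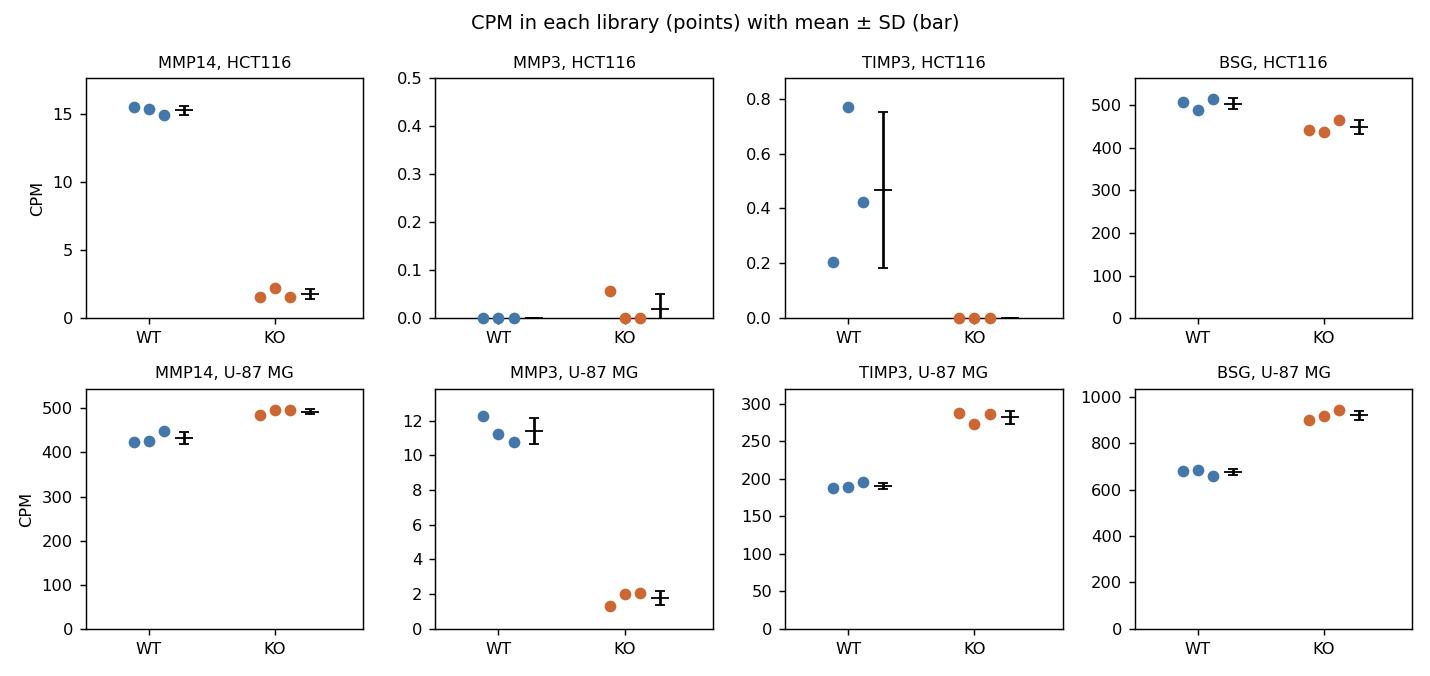
CPM of MMP14, MMP3, TIMP3 and BSG in each library, HCT116 above and U-87 MG below, with the mean and SD beside the points and every axis starting at 0. MMP14 and BSG lie lower in KO in HCT116 and higher in KO in U-87 MG, MMP3 in U-87 MG lies at 10.7 to 12.2 CPM in WT and at 1.30 to 2.05 in KO, and TIMP3 has no count in HCT116 KO.

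MMP14 was chosen with its fall in HCT116 known, so its neighbours are set beside it as a description only. No tested gene near MMP14 fell as far. In HCT116, 19 genes within 500 kb were tested, with a median log2 fold change of 0.01 and a range from -0.59 to 0.68. LRP10 (0.68) and SLC7A8 (0.65) were called higher and PRMT5 (-0.59) lower. On chromosome 14 as a whole 4.45% of 427 genes tested were called lower in HCT116, close to the 4.07% over all genes. U-87 MG differed in this respect. There 35.6% of 430 genes tested on chromosome 14 were called lower in KO, with a median log2 fold change of -0.47, and the 20 tested neighbours of MMP14 had a median of -0.36, while MMP14 itself was at 0.19.

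**Figure D4:**
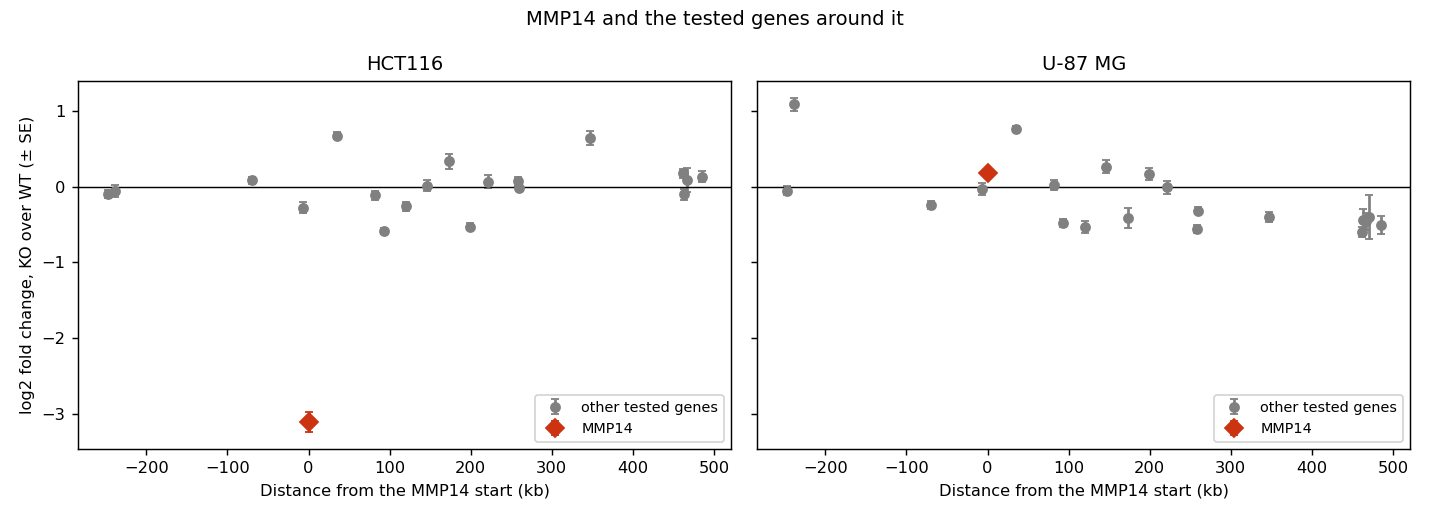
Log2 fold change, KO over WT, of the tested genes within 500 kb of MMP14, plotted by distance from its start in kb, HCT116 and U-87 MG in separate panels. MMP14 lies at -3.11 below neighbours that run from -0.59 to 0.68 in HCT116, and at 0.19 above a neighbour median of -0.36 in U-87 MG.

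The 250 bases upstream of the RefSeq starts of MMP14, MMP7, TIMP1 and TIMP3 are printed to show how the sequence before the member that fell in HCT116 compares with those of an inducible MMP and the inhibitors. They were read from RefSeq on GRCh38.p14, 5′ to 3′ on the gene's strand, at chr14:22836335-22836584 (plus) for MMP14, chr11:102530748-102530997 (minus) for MMP7, chrX:47582186-47582435 (plus) for TIMP1 and chr22:32801455-32801704 (plus) for TIMP3. Capitals mark matches, on either strand, to the AP-1 motif TGANTCA, the GC box GGGCGG, the TATA box TATAAA, the PEA3 (ETS) motif AGGAAG or the interferon response motif (GAAA, any 2 bases, GAAA).
MMP14: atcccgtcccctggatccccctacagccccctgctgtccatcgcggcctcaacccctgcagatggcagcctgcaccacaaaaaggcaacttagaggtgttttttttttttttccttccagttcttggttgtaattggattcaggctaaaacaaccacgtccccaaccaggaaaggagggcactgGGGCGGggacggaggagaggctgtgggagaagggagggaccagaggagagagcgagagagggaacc
MMP7: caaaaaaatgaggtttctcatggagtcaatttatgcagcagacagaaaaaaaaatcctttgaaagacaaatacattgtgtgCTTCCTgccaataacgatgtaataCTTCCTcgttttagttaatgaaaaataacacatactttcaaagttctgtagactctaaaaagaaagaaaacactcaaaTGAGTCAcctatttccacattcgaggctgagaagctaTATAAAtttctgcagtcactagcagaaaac
TIMP1: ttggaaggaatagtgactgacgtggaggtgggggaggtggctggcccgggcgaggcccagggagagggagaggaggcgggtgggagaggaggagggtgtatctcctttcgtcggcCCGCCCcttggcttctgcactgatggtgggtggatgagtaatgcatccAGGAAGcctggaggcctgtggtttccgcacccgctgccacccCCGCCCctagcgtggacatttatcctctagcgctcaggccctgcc
TIMP3: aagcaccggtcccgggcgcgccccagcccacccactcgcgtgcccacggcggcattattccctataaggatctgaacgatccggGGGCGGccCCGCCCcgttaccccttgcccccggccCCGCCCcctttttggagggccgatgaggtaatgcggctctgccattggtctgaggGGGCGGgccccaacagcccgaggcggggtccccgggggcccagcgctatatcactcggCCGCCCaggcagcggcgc

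The MMP14 window holds 1 match, a GC box at positions -66 to -61 from the start, and none to the AP-1, TATA, PEA3 or interferon motifs. That is a statement on these letters in this window only. The MMP7 window holds the features textbooks give for inducible MMPs: an AP-1 match at -67 to -61, a TATA box at -30 to -25 and PEA3 matches at -169 to -164 and -145 to -140. TIMP3 has 5 GC boxes and 26 CpG dinucleotides, and TIMP1 has 2 GC boxes, 1 PEA3 match and 12 CpGs, beside 7 CpGs for MMP14 and 3 for MMP7. The 35116 windows of the same length in the table had a median of 11 CpGs. Of them 6.57% held the AP-1 motif, 42.6% a GC box, 10.7% the TATA box, 28.7% the PEA3 motif and 3.02% the interferon motif. MMP15 (5 GC boxes) and BSG were also in the table, and MMP1, MMP2, MMP3 and TIMP2 were not matched.

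MMP15 (MT2-MMP, chr16:58025754-58046901, plus strand, 10 exons), the other membrane-type member, was the most abundant MMP of the list in HCT116. It was measured at 66.2, 65.3 and 63.3 CPM in WT and at 81.2, 78.5 and 89.6 in KO, a log2 difference of 0.36 (SE 0.06) opposite in sign to that of MMP14. In U-87 MG it was measured at 5.02, 5.87 and 7.05 CPM in WT and at 5.63, 5.34 and 6.45 in KO, with overlap (log2 fold change -0.04, SE 0.14, adjusted p = 0.828, edgeR). Among the membrane-type MMPs of HCT116 (MMP14, MMP15, MMP16, MMP17, MMP24 and MMP25), MMP14 made up 18.5% of the summed FPKM in WT and 2.01% in KO, and MMP15 67.0% in WT and 84.7% in KO. In U-87 MG, MMP14 made up 92.1% in WT and 90.5% in KO. The membrane-type message was therefore mostly MMP15 in HCT116 and mostly MMP14 in U-87 MG, in WT and KO libraries alike.

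Of the inhibitors, TIMP1, TIMP2 and TIMP3 were all higher in the KO libraries of U-87 MG, without overlap. TIMP1 (chrX:47582408-47586789, plus strand, 6 exons), a secreted inhibitor of most soluble MMPs with weak action on MMP14, was measured at 267, 274 and 297 CPM in WT and at 370.1, 369 and 367 in KO (1.32-fold, log2 fold change 0.40, SE 0.04, adjusted p = 2.94e-08, edgeR). TIMP2 (chr17:78852977-78925387, minus strand, 5 exons), the bridge between MMP14 and pro-MMP2, was measured at 251, 259.6 and 263 CPM in WT and at 339, 339 and 344 in KO (1.32-fold, log2 fold change 0.40, SE 0.04, adjusted p = 7.3e-09, edgeR). TIMP3 (chr22:32801705-32863041, plus strand, 5 exons), which binds to the matrix and also inhibits ADAM17, was measured at 188, 189.5 and 195 CPM in WT and at 287, 272 and 287 in KO (1.48-fold, log2 fold change 0.56, SE 0.04, adjusted p = 6.36e-11, edgeR). The rises exceeded the spread between libraries and stayed under the 1.5-fold threshold. Without KO replicate 2, TIMP3 passed it at 0.59. Without WT replicate 3 the log2 fold changes were 0.44 for TIMP1, 0.41 for TIMP2 and 0.58 for TIMP3. TIMP3 lies on chromosome 22, where 72.1% of 298 genes tested were called lower in U-87 MG KO and 1.34% higher, with a median log2 fold change of -0.97. Its tested neighbours within 500 kb, RTCB (-1.22) and FBXO7 (-0.93), were called lower, opposite to TIMP3. TIMP1 lies within SYN1 and TIMP3 within SYN3, on the opposite strand and with no exon overlap.

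In HCT116, TIMP1 was measured at 97.3, 97.0 and 102 CPM in WT and at 107, 105 and 105 in KO (log2 difference 0.10, SE 0.05). TIMP2 was measured at 128, 137 and 131 CPM in WT and at 144, 159.6 and 154 in KO (0.21, SE 0.05). Both differences were small beside that of MMP14. TIMP3 was rare in HCT116, with 5, 20 and 9 counts in WT and 0 in each KO library. The observed WT level stood 9.54-fold above a floor of 3 counts over the KO group (0.0496 CPM). The 34 WT counts entered without their own counting error, so this ratio is not a strict lower limit, and TIMP3 was not tested in HCT116. WT replicate 2 gave 20 of the 34 counts, and without that library the ratio was 6.17-fold. Without KO replicate 3, the deepest KO library, it was 5.78-fold. The floor covers counting error only, and the WT level, 0.473 CPM, was itself close to the detection limit.

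In U-87 MG the summed level of the MMP genes, most of it MMP2, was lower in KO, and that of the TIMP genes was higher. Over the 23 MMP genes the sum in U-87 MG was 1088 ± 16.7 FPKM in WT and 894 ± 2.26 in KO, and over TIMP1 to TIMP4 it was 471 ± 23.8 in WT and 656 ± 3.02 in KO. The TIMP sum divided by the MMP sum ran from 0.419 to 0.456 in WT and from 0.731 to 0.735 in KO, without overlap. MMP2 made up 88.2% of the MMP sum in WT and 83.8% in KO, and MMP14 9.86% and 13.9%. Between WT and KO, MMP2 fell from a mean of 960 to 749 FPKM, while MMP14, the next largest, rose from 107 to 124. The lower MMP sum thus followed MMP2 and was not a fall of the family as a whole. In HCT116 the MMP sum was 22.5 ± 0.148 FPKM in WT and 21.8 ± 1.83 in KO, and the TIMP sum 142 ± 1.97 and 149.6 ± 1.00. Its ratio ran from 6.21 to 6.45 in WT and from 6.30 to 7.28 in KO, so the groups overlapped. These sums describe messenger RNA and were not tested.

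**Figure D5:**
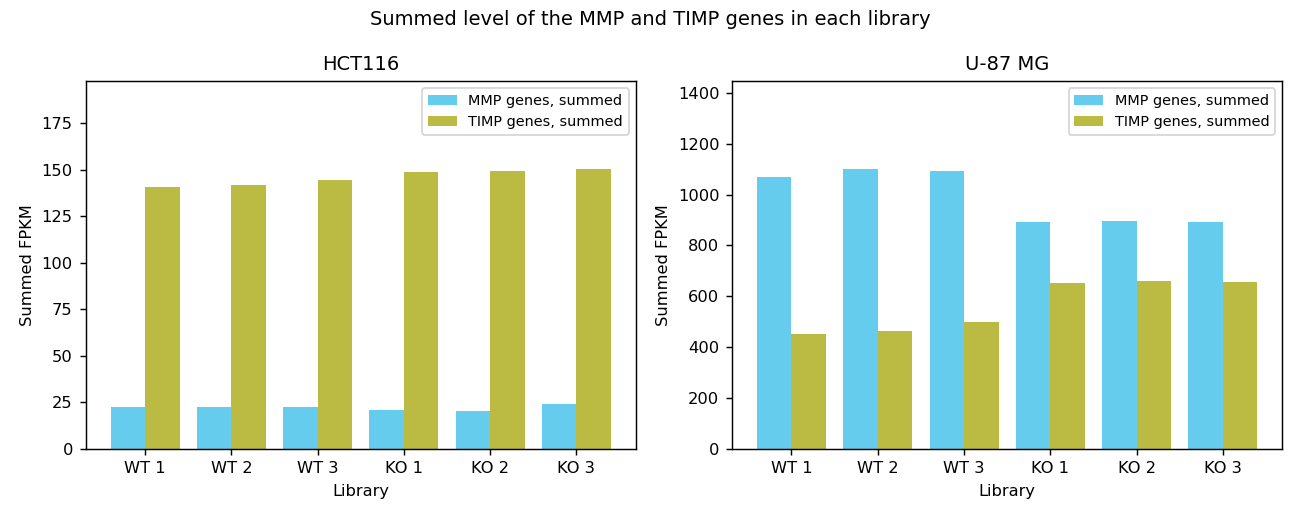
Summed FPKM of the 23 MMP genes (blue bars) and of TIMP1 to TIMP4 (olive bars) in each library, HCT116 on the left and U-87 MG on the right, on axes of different scale that start at 0. TIMP sums exceed MMP sums in every HCT116 library, MMP sums exceed TIMP sums in every U-87 MG library, and in U-87 MG the KO libraries hold lower MMP and higher TIMP sums than the WT libraries. Most of the MMP sum in U-87 MG is MMP2.

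BSG (chr19:571277-583494, plus strand, 9 exons) was among the most abundant members in both lines. In HCT116 it was measured at 507, 489.7 and 515 CPM in WT and at 442, 438 and 466 in KO (log2 difference -0.17, SE 0.04). In U-87 MG it was measured at 681, 684 and 660.1 CPM in WT and at 902, 918 and 943 in KO, 1.36-fold higher (log2 fold change 0.45, SE 0.04, adjusted p = 3.04e-10, edgeR). As for MMP14, KO libraries lay below WT in HCT116 and above WT in U-87 MG, without overlap. The difference between lines was not tested. SLC16A3, which encodes the basigin-dependent lactate transporter MCT4, was measured at 329, 329 and 356 CPM in HCT116 WT and at 208, 201 and 240.5 in KO and fell by 0.64 on the log2 scale (SE 0.05). In U-87 MG it was measured at 109, 104 and 109 CPM in WT and at 136, 146 and 149.8 in KO (log2 fold change 0.42, SE 0.05, below the 1.5-fold threshold). Of the basigin partners listed, 11 were tested in HCT116 and 10 in U-87 MG. Over all genes tested 7.82% were called higher and 4.07% lower in HCT116, and 8.06% and 8.15% in U-87 MG. CAV1 (1.00) and CD44 (0.90), surface proteins that bind basigin, were called higher and SLC16A3 lower in HCT116, and SLC16A7 (-0.66), the transporter MCT2, was called lower in U-87 MG. That single U-87 MG call was lost without KO replicate 3 and with limma on log2(FPKM + 1). The median over the list was 0.06 in HCT116 and -0.05 in U-87 MG, beside 0.01 over all genes tested in either line.

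Too few of the other MMPs were tested for their number of calls to be read as a result. Of 17 further MMP genes, 5 were tested in each line, and none was called in HCT116, where 7.82% of all genes were called higher and 4.07% lower (median log2 fold change -0.23). By adjusted p alone 1 of the 5 passed there, beside 8059 of all 14068 genes tested. It was MMP25, named after its value was seen, with 13 to 34 counts per library and a mean of 0.195 FPKM, below the threshold for a call. In U-87 MG, where 8.06% of all genes were called higher and 8.15% lower, 1 of the 5 was called higher (median 0.34), namely MMP17, a GPI-anchored MMP, at 2.45, 1.79 and 2.67 FPKM in WT and 4.85, 4.58 and 5.11 in KO (log2 fold change 1.09, SE 0.12). Of the other inhibitors and clearance genes, 4 were tested in HCT116 and 2 were called higher, LRP1 (1.07, SE 0.07), the endocytic receptor that clears protease-inhibitor complexes, and SPOCK3 (1.04, SE 0.25). With limma on log2(FPKM + 1) the HCT116 count was 0. In U-87 MG, 6 were tested and TIMP4, the remaining TIMP, rose from 39.8, 40.9 and 47.6 FPKM in WT to 74.0, 75.3 and 73.9 in KO (log2 fold change 0.71, SE 0.06), while SPOCK1, a testican proteoglycan, fell (-0.77, SE 0.05). TIMP4 was thus the TIMP gene with a call in U-87 MG, and the 3 TIMP members differed in the same direction below the threshold.

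Calls among the ADAM and ADAMTS proteases were all higher in HCT116 and went in both directions in U-87 MG. Over all genes tested 7.82% were called higher and 4.07% lower in HCT116, and 8.06% and 8.15% in U-87 MG. The median log2 fold change over all genes was 0.01 in either line. Of ADAM sheddases, which release membrane-bound ligands, 1 of 6 tested was called higher in HCT116 (ADAM19, 1.13, SE 0.04). In U-87 MG 2 of 8 were called higher (ADAM8, 1.63, and ADAM15, 0.94) and 2 lower (ADAM19, -1.26, and ADAM12, -0.90). ADAM19 thus had opposite signs in the lines. Of ADAMTS proteases, secreted enzymes that cut proteoglycans, procollagen or von Willebrand factor, 3 of 5 were called higher in HCT116: ADAMTS10 (1.6), ADAMTS7 (1.09) and ADAMTS13 (0.72). In U-87 MG 1 of 8 was called higher (ADAMTS13, 0.70) and 2 lower (ADAMTS6, -1.02, and ADAMTS12, -0.84). The U-87 MG count of 3 ADAMTS calls was 5 without KO replicate 1, KO replicate 2 or WT replicate 2 of that line. With limma on log2(FPKM + 1) it was 0 in U-87 MG, and the HCT116 count was 2. The median log2 fold change was 0.25 for the ADAM and 1.09 for the ADAMTS list in HCT116, and 0.31 and 0.58 in U-87 MG. Of activators of pro-MMPs and their control, 4 of 12 were called higher in HCT116, among them PLAUR, the urokinase receptor (0.73), and the serpin SERPINE2 (0.81), and 1 lower, the proprotein convertase PCSK6 (-0.94), with a list median of 0.46. FURIN, the convertase that activates pro-MMP14, was at 0.57 in HCT116 and 0.45 in U-87 MG, below the threshold in both lines. In U-87 MG 2 of 8 were called lower, urokinase itself (PLAU, -0.92) and PCSK5 (-0.68), with a list median of -0.34. With limma on log2(FPKM + 1) 1 of them was called.

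AP-1 and ETS transcription factors act on the promoters of inducible MMPs. The list of 14 genes used here also holds EGR1, which belongs to neither family. All 14 were tested in each line, and 8 were called higher and none lower in HCT116, where 7.82% of all genes were called higher, with a median log2 fold change of 0.63 beside 0.01 over all genes. ATF3 (1.55, SE 0.07), EGR1 (1.11, SE 0.06), JUNB (0.71, SE 0.06) and ETV5 (0.64, SE 0.05) had the smallest adjusted p of these. With limma on log2(FPKM + 1) 4 of the 14 were called higher. FOSL1, the most abundant of the list in HCT116 (mean 96.5 FPKM), went the other way. It lay lower in every KO library (log2 fold change -0.29, SE 0.05), below the threshold for a call. MMP7, the only member with an AP-1 match among those whose windows were read, was too rare in HCT116 to be tested. The windows of MMP1, MMP2, MMP3 and TIMP2 were not read. In U-87 MG 2 were called higher (ATF3, 0.82, and EGR1, 0.84) and 2 lower (ETS1, -0.85, and ETS2, -1.59), with a median of -0.20. The lists were chosen with earlier results of these data known, and their counts describe these libraries.

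The 5 genes whose log2 CPM followed MMP14 most closely over the 12 libraries, of 10537 compared, were TUBA4A (Pearson r 0.998), AGAP2-AS1, HPS3, TEX261 and BEND6 (each 0.996). The 12 points fall into the 4 groups and share the library preparation of their line, so r is given as a description only. In each of the 5 genes the HCT116 difference was smaller than that of MMP14, from -1.29 for BEND6 to -0.46 for TEX261. As MMP14 was chosen with its fall known, nothing is read from that ranking.

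Markers of other cell types moved in U-87 MG beside these results. The summed FPKM of 8 leukocyte markers was 183.1 to 224.8 in WT and 301.2 to 313.6 in KO. Nearly all of it came from CD68, a lysosomal protein (mean 193 in WT and 304 in KO). CSF1R, the other leukocyte marker above 0.5 FPKM, was called lower (mean 4.42 in WT and 2.64 in KO, log2 fold change -0.75), while CD3E and TYROBP had 0 counts in all 12 libraries and PTPRC at most 11. The sum of 8 fibroblast and mesenchyme markers was 920.5 to 1020 in WT and 876.7 to 893.2 in KO. Within it COL3A1 (log2 fold change 3.31) and LUM (2.66) were called higher and COL1A1 (-0.84), PDGFRB (-0.70) and FAP (-0.84) lower. The sum of the glial markers was 3744 to 4403 in WT and 3110 to 3153 in KO. The colon epithelium sum in HCT116 was 2040 to 2162 in WT and 1840 to 2037 in KO, with the abundant keratins KRT8 (-0.13) and KRT18 (-0.18) below their WT level and CDH1 (0.86), CLDN3 (1.12) and CLDN4 (0.95) called higher. Their part in the members' values was not tested. In bulk libraries, fewer cells of a kind and less RNA per cell cannot be told apart.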

How the data were processed

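RNA-seq of 12 libraries was analysed from the deposited files. Per the submitters' processing notes, STAR 2.5.2, featureCounts 1.6.1 and Cufflinks 2.2.1 were used with GRCh38. The deposited gene counts are raw whole numbers and the deposited FPKM values were computed by the authors. The annotation and the strand setting of the counting are not stated in the sources used here. Libraries were grouped by title.

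Each line was fitted separately with edgeR 4.0.16 in R 4.3.3 (TMM scaling, filterByExpr, robust quasi-likelihood F-test, Benjamini-Hochberg adjustment over all genes tested). CPM are counts scaled by TMM library sizes, and the standard error is the log2 fold change divided by the square root of F. The fit recovered known changes in simulated counts when checked. Alternatives were DESeq2 1.42.0, limma 3.58.1 on log2(FPKM + 1) or log2(FPKM + 0.1), no filter, other scaling, a replicate block and leaving out each library. Gene positions are from GENCODE, promoters from RefSeq.

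The members and lists were chosen with earlier results of these data known. The values of 1 list gene are not reported here, though list counts and medians include it. Named genes were all members, GSTO1, up to 4 called genes per list and line with the smallest adjusted p, list genes with a mean FPKM of 10 or more, neighbours, and the 5 genes most like MMP14. BEND6 and the other like genes were taken among genes with at least 2 FPKM in a line.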

Additional observations from a re-analysis of the deposited data

Results flagged for a closer look

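Of 62 members and named list genes examined, the 16 given below had KO libraries all on one side of WT in HCT116 and all on the other side in U-87 MG. In each case below the difference between the lines was not tested, and the value is the log2 fold change (KO over WT) in HCT116 minus that in U-87 MG. Among the members, MMP14 differed by -3.30, with -3.11 in HCT116 and 0.19 in U-87 MG, and BSG differed by -0.61. Among the other metalloproteases the value was -1.31 for MMP17, 0.35 for ADAM9, 2.39 for ADAM19 and 2.55 for ADAMTS6. Among the activators and their control it was 1.07 for PCSK5 and 0.90 for PLAUR. Among the AP-1 and ETS factors it was 1.18 for JUN, 1.66 for ETS1 and 1.91 for ETS2. Among the basigin partners it was -1.06 for SLC16A3, 0.82 for SLC16A7, 1.18 for CAV1, 0.53 for ITGB1 and 0.25 for SLC3A2. KO and WT libraries did not overlap, in either direction, for 61.6% of all genes tested in HCT116 and 64% in U-87 MG, so separation within a line was common. The share of all genes separated in opposite directions in the lines is not given here.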

How the results depend on the processing

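The log2 fold change of MMP14 in HCT116 ran from -3.29 to -1.74 over 13 alternatives. MMP3 in U-87 MG was called in 13 of 13, from -2.82 to -1.83 (highest adjusted p 5.51e-06). The values nearest 0 came from log2(FPKM + 1). With limma on that scale 1069 genes were called in HCT116 in place of 1672. The number of members called in U-87 MG ran from 1 to 2 when each library was left out, with 2 without KO replicate 2, where TIMP3 passed at 0.59. MMP15 in U-87 MG changed sign without KO replicate 2 (0.01) and without WT replicate 3, with a range from -0.15 to 0.0799 over the libraries left out, and MMP1 without WT replicate 2, with a range from -0.0651 to 0.24. Neither passed the test in any of these. The replicate numbers gave no uniform pairing of the samples. Same-numbered KO and WT libraries correlated at 0.07, 0.06 and 0.23 in HCT116 and at 0.03, 0.0044 and -0.01 in U-87 MG. Not every library correlated best with its own number. In HCT116, KO replicate 3 correlated at 0.23 with WT replicate 3, but at -0.12 and -0.14 with WT replicates 1 and 2. Replicate 3 of KO and WT thus shared some variation in that line, which the main fit did not model. With a replicate block 1 member was called in each line, with 1680 genes called in HCT116 and 2221 in U-87 MG, and 22 and 19 list genes. The ADAMTS list in U-87 MG had 5 calls in place of 3 with the block and without KO replicate 1, KO replicate 2 or WT replicate 2, and 0 with limma on log2(FPKM + 1). On that scale the activators in U-87 MG had 1 call in place of 2. The ratio of the WT level of TIMP3 in HCT116 to the KO floor, an alternative chosen after seeing the data, ran from 5.78 to 12.3 when each library was left out. Depth limited MMP1, MMP2, MMP3, MMP7 and TIMP3 in HCT116 and MMP1 and MMP7 in U-87 MG.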
